A study of Mus musculus with 6 samples.

Results

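The subject is a group of 9 genes for peptides and proteins that the liver secretes into blood: Enho, Tff3, Fgf21, Angptl4, Gdf15, Fetub, Ahsg, Lect2 and Fst. They were taken by gene symbol, as every named probe set (the group of oligonucleotides on an array that measures 1 transcript) of these genes. Of the 9 genes, 8 were measured, by 13 of the 38195 probe sets tested. Gdf15, a stress-induced hormone that acts on the hindbrain receptor Gfral to lower food intake, is not analysed here.

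The livers came from C57BL/6 mice aged 16 weeks that had eaten a high-fat diet (HFD) for 8 weeks, so the diet is common to both groups. The controls (RECS1-flox, n = 3) carry floxed alleles of RECS1, an older name of the membrane protein gene Tmbim1. The others (RECS1-HKO, n = 3, called HKO here) lack RECS1 in hepatocytes, while the other liver cells are not targeted; the sources used here do not name the Cre driver. Each array holds RNA of 1 liver sample, measured as a log2 intensity.

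A hepatokine is a protein that hepatocytes release and that acts on other organs. Fgf21, for example, is released in fasting and nutrient stress and signals through an FGF receptor joined to the co-receptor Klb, and Angptl4 blocks lipoprotein lipase, the enzyme that frees fatty acids from circulating triglyceride. Fetuin A (Ahsg) and fetuin B (Fetub) are abundant plasma proteins of the cystatin superfamily. Many such genes respond to the fatty acid receptor PPARa or to the integrated stress response, a program of gene expression that follows stress on protein synthesis.

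The arrays had medians between 3.92 and 3.95, and gene values correlated at 0.995 to 0.996 within a genotype and at 0.991 to 0.994 across genotypes. Tmbim1 itself stood at 7.62, 7.58 and 7.74 in the controls and at 7.19, 7.14 and 7.06 in HKO, a log2 fold change of -0.52 ± 0.08 (SE; limma, adjusted p = 0.026), and the sources used here do not say whether its probe set lies in the deleted part. The adjusted p of Tmbim1 rose to between 0.065 and 0.0967 without any 1 of the arrays. All 13 measured hepatocyte markers were above 7 on every array, none passed the test (1, Hnf4a, lower at an unadjusted p under 0.05) and their median log2 fold change was 0.06. The Y-linked gene Eif2s3y stood between 6.74 and 7.14 and Xist between 1.20 and 1.57 over the 6 arrays. Control 1 stood apart from the other controls in some injury and inflammation genes, seen after the values were known, with Lcn2 at 8.03 against 5.21 and 4.81 and S100a8 at 6.30 against 4.02 and 4.46.

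Of the 8 measured genes, 2 were lower in HKO liver and none was higher (limma, Benjamini-Hochberg adjusted p under 0.05 over 18029 genes). Over all genes, 0.449% passed as lower and 0.56% as higher. The group was chosen with earlier results of these data known, so this comparison is a description and not a test. Each gene was read by its brightest probe set. At an unadjusted p under 0.05 there were then 3 lower (Angptl4 was the third) and 0 higher, beside 6.96% and 6.03% of all genes. Counts at an unadjusted p given further on are read against these shares. The dimmer probe set of Fst, given below, was higher at that level. The 2 genes were Tff3 and Enho, with the fourth and the sixth largest fall among the 81 genes that passed as lower. By their brightest probe sets, the other 6 measured genes had log2 fold changes between -0.42 and 0.42. The median over the 8 was -0.01, beside -0.00 over all genes. In whole liver, fewer cells of a type and less RNA per cell cannot be told apart.

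**Figure D1:**
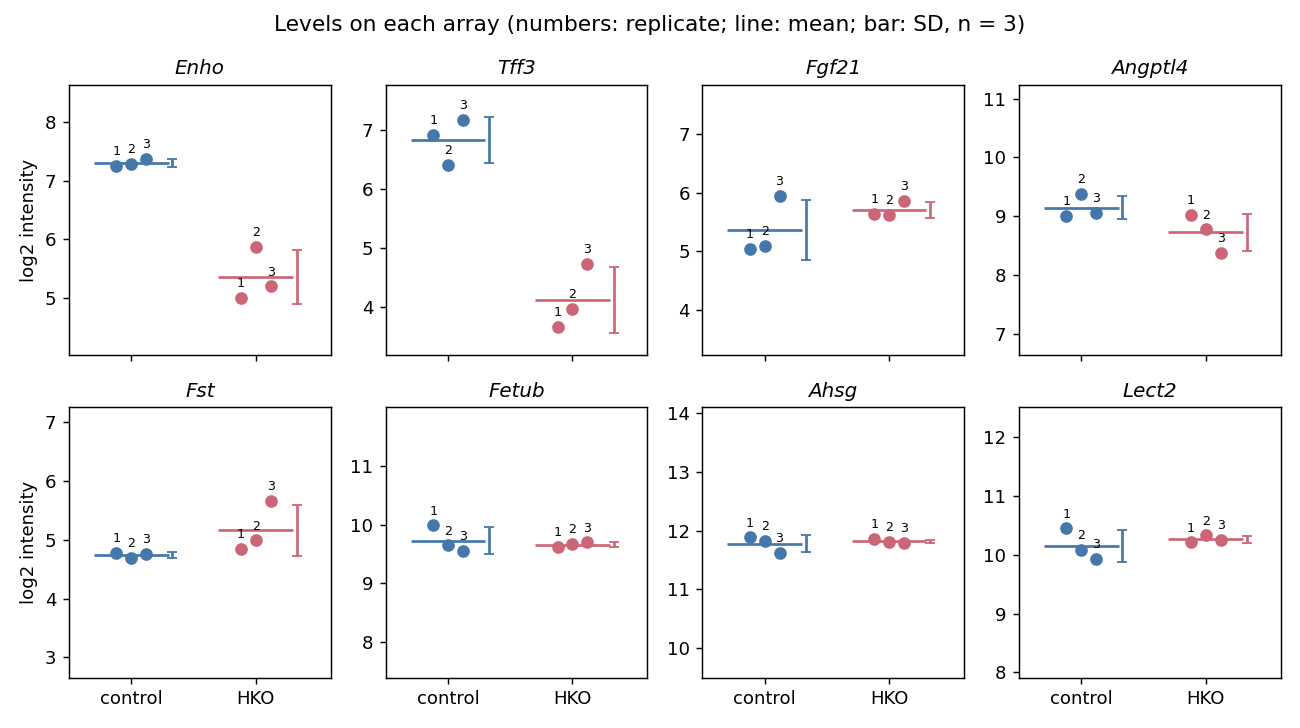
Log2 intensity (y axis) of the 8 measured genes on each of the 6 arrays, each gene by its brightest probe set. Blue points are control and red points HKO livers, numbered by replicate, with the group mean as a line and the SD as a bar; every panel spans the same number of log2 units. Enho and Tff3 separate widely, Fst narrowly, and in the other 5 panels the groups overlap.

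Enho encodes adropin, a small secreted peptide of liver and brain that is linked to fuel use and insulin sensitivity. Its brightest probe set read 7.24, 7.29 and 7.37 in the controls and 5.00, 5.88 and 5.20 in HKO. The controls were nearly equal, all HKO livers were below them, and the narrowest gap between the groups was 1.37 log2 units. Enho fell from 7.30 ± 0.06 to 5.36 ± 0.46 (mean with SD, n = 3 per genotype), with a log2 fold change of -1.94 ± 0.20 (SE; 95% interval -2.40 to -1.48; limma adjusted p = 0.00409), or 0.261 times the control level.

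Of the 4 probe sets of Enho, a second one gave nearly the same difference. It read 6.71, 6.47 and 6.55 in the controls against 4.19, 5.26 and 4.27 in HKO, a log2 fold change of -2.00 ± 0.25 (adjusted p = 0.0112 over all probe sets, of which 0.335% passed as lower). HKO 2 was the highest HKO liver on both. These 2 probe sets were designed from the same transcript record, so they are not independent readings, and the suffix of the second marks probes that can match further transcripts. The other 2, designed from another record, had log2 fold changes of -0.04 and 0.05 at group means of 4.03 and 3.99 and of 2.81 and 2.86. With the median of the 4 probe sets as the gene's value, the log2 fold change was -1.02 (adjusted p = 0.0345).

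Tff3 encodes a trefoil peptide best known from the mucus of the gut, where it protects and repairs the epithelium. It has 1 probe set, which read 6.92, 6.41 and 7.17 in the controls and 3.66, 3.96 and 4.73 in HKO. No HKO liver reached the lowest control, and the groups were 1.67 log2 units apart at their nearest. Tff3 fell from 6.83 ± 0.39 to 4.12 ± 0.56, a log2 fold change of -2.72 ± 0.28 (95% interval -3.37 to -2.07; limma adjusted p = 0.00412), or 0.152 times the control level. The HKO values come near the floor of the arrays: the 39 olfactory receptor genes, a class not known for expression in liver, had a median of 2.58 and a 95th percentile of 3.71, and HKO 1 lay under the latter. RMA draws such dim values together, which makes a fold change smaller.

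The order of the HKO livers differed between these 2 genes. Enho was highest in HKO 2 and lowest in HKO 1, while Tff3 was highest in HKO 3 and lowest in HKO 1. Both passed the test in all 6 fits without 1 array, with log2 fold changes of -2.20 to -1.76 for Enho and -3.03 to -2.49 for Tff3.

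Since Tff3 is also made by mucus-secreting epithelium, bile duct and mucus cell markers were set beside it. Of 13 such markers 11 were measured and none passed in limma (1, Sox9, lower at an unadjusted p under 0.05), with 9 of the 11 below 0 and a median log2 fold change of -0.17. Sox9 stood at -0.66 ± 0.18 (limma adjusted p = 0.171), Krt19 at -0.28 and Krt7 at -0.22. The groups of Sox9 and Krt7 did not overlap, as in 10.1% of all genes on the lower side. Sox9 had a mean of 4.21 in controls and of 3.55 in HKO, the latter below 3.71. The log2 of the mean intensity over the 11 lay between 3.81 and 3.92 in controls and between 3.72 and 3.77 in HKO. This mean gives most weight to the brightest gene, here Slc4a2, at 6.01 in controls and 5.99 in HKO. Of the 11, 8 (Krt7, Krt19, Cftr, Cldn4, Muc1, Muc2, Agr2 and Spink1) were below 3.71 in both groups. The part of these cells in the Tff3 result was not tested.

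Among genes above the median gene, the 3 whose values over the 6 arrays were most like those of Enho were the complement gene C6, the hepatic serine protease gene Tmprss6 and the glutathione transferase gene Gstp1, with Pearson correlations of 0.999, 0.993 and 0.992. C6 read 9.66, 9.54 and 9.72 in the controls and 7.58, 8.39 and 7.72 in HKO, so it shared the high HKO 2 value. The log2 fold changes of C6, Tmprss6 and Gstp1 were -1.74, -0.16 and -0.68, and Tmprss6 did not pass. For Tff3 they were Psen2, a subunit of gamma-secretase, Hax1, a mitochondrial survival factor, and Ctnnb1, which encodes beta-catenin, at 0.994, 0.992 and 0.990. The log2 fold changes of Psen2, Hax1 and Ctnnb1 were -0.17, -0.13 and -0.15, and none of them passed. Of 9013 genes compared, 102 for Enho and 83 for Tff3 had a correlation above 0.95, and these points share the split between genotypes.

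**Figure D2:**
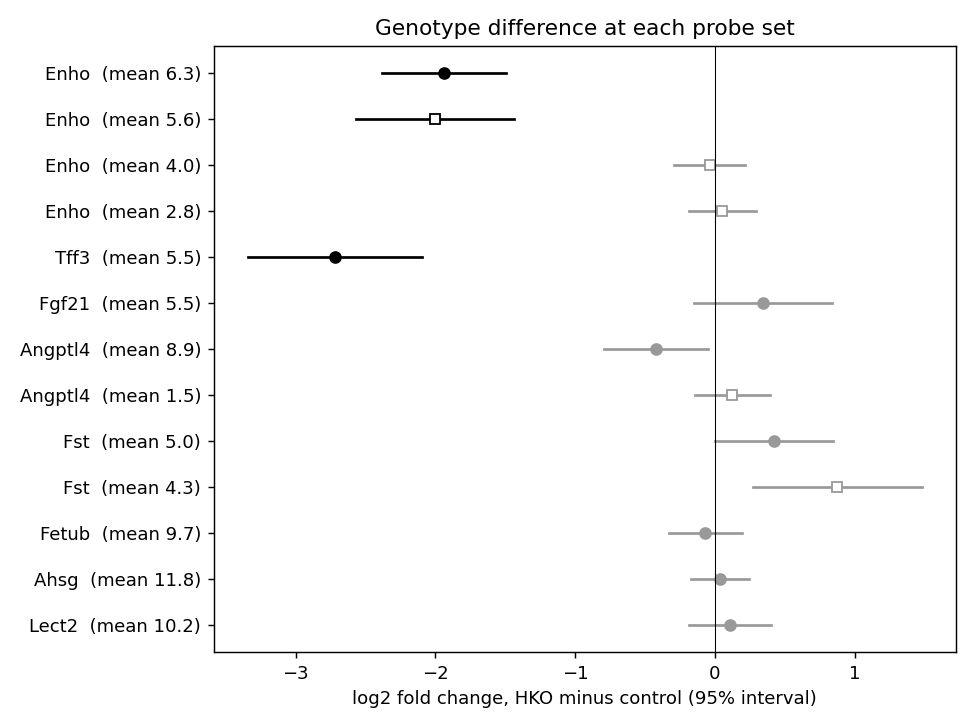
Log2 fold change, HKO minus control (x axis), with its 95% interval, for each of the 13 probe sets (y axis, with the mean log2 intensity over both groups). Filled circles are the probe sets that stand for the gene, open squares the others, and black marks an adjusted p under 0.05; 2 of 4 probe sets of Enho and the 1 of Tff3 lie far below 0, and both of Fst lie above it.

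Fst encodes follistatin, which binds activins and myostatin and blocks their action. Its brightest probe set read 4.78, 4.69 and 4.76 in the controls and 4.84, 4.99 and 5.66 in HKO. The groups did not overlap, but the gap was 0.06 log2 units and HKO 3 stood well above the other HKO livers. The log2 fold change was 0.42 ± 0.19 (95% interval -0.01 to 0.86; limma adjusted p = 0.402), and 0.17 without HKO 3. The second probe set of Fst ranked the HKO livers in the same order, at 4.17, 4.62 and 5.45 against 3.94, 3.77 and 3.89 in the controls. These groups did not overlap either. The log2 fold change was 0.88 ± 0.27, with a 95% interval of 0.27 to 1.48. In limma over all probe sets its unadjusted p was 0.00955 and its adjusted p 0.245.

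In all, the groups did not overlap in 1 gene that was higher (Fst) and 2 that were lower (Tff3 and Enho), beside 8.58% and 10.1% of all genes.

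Angptl4 read 9.01, 9.37 and 9.05 in the controls and 9.02, 8.78 and 8.38 in HKO. HKO 1 lay a little above control 1, so the groups overlapped narrowly, and HKO 3 was the lowest. The log2 fold change was -0.42 ± 0.17 (95% interval -0.80 to -0.04; limma adjusted p = 0.34), and -0.25 without HKO 3. The suffix of this probe set, too, marks probes that can match further transcripts. The second probe set of Angptl4, at 1.40 in controls and 1.53 in HKO, was under the floor and had a log2 fold change of 0.13; the median of both gave -0.15.

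Fgf21 read 5.05, 5.09 and 5.95 in the controls and 5.64, 5.62 and 5.85 in HKO. Control 3 was the highest of all 6 livers, above every HKO liver, and the other controls were below every HKO liver. The log2 fold change was 0.34 ± 0.22 (95% interval -0.17 to 0.85; limma adjusted p = 0.572). Without control 3 it was 0.64 (adjusted p = 0.0654), and without control 1 it was 0.19.

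The mouse Fgf21 promoter is a known meeting point of nutrient signals, and it is shown for 2 elements, those of ATF4 and of E-box factors, whose genes are described further on. The RefSeq window from 250 bases before to 50 bases after the gene start (GRCm38.p6, chr7:45615441-45615740, minus strand) was searched on both strands for TGATGNAA, the core bound by ATF4 with C/EBP partners, and for CACGTG, the E-box core. The capitals mark the matches, which do not overlap.
Fgf21 promoter: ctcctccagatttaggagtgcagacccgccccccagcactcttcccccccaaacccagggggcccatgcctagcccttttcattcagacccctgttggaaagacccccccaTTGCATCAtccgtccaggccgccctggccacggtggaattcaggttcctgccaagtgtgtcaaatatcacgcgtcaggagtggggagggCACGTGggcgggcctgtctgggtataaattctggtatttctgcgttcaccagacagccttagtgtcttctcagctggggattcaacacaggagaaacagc
The first match, TTGCATCA, is TGATGNAA on the opposite strand and begins 139 bases before the gene start, and the second begins 50 bases before it. Of 32851 such promoter windows, 3.97% hold TGATGNAA and 7.15% hold CACGTG. A match describes the letters and not the binding of a factor in these livers.

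In both fetuins the genotypes differed by less than the SD of the controls. Ahsg, which binds calcium phosphate in plasma and inhibits the insulin receptor in cell assays, read 11.88, 11.83 and 11.62 in the controls and 11.85, 11.80 and 11.79 in HKO. All HKO livers lay within the range of the controls, and the log2 fold change was 0.04 ± 0.09 (95% interval -0.16 to 0.24; limma adjusted p = 0.895). Fetub, an inhibitor of astacin proteases, read 9.99, 9.65 and 9.55 in the controls and 9.62, 9.68 and 9.70 in HKO. Again the HKO values fell inside those of the controls, at -0.07 ± 0.11 (95% interval -0.33 to 0.20; adjusted p = 0.851), and at 0.06 without control 1. In the RefSeq order of chromosome 16, Ahsg and Fetub have no protein-coding gene between them.

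Lect2, a chemotactic hepatokine linked to insulin resistance of muscle, read 10.45, 10.09 and 9.93 in the controls and 10.21, 10.33 and 10.25 in HKO. The HKO livers lay between the lowest and the highest control. The log2 fold change was 0.11 ± 0.13 (95% interval -0.19 to 0.41; limma adjusted p = 0.776).

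Ahsg, Fetub and Lect2 shared a pattern within the controls, where control 1 was the highest and control 3 the lowest each time. Their SDs in controls were 0.14, 0.23 and 0.27, and in HKO 0.03, 0.04 and 0.06. Enho and Fst had the opposite spread, with SDs of 0.06 and 0.05 in controls and 0.46 and 0.44 in HKO. With 3 livers per group, the spreads were not tested.

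The receptors and partners through which these proteins act were measured next. Of 26 genes 24 were measured and none passed the test (2 higher and 1 lower at an unadjusted p under 0.05 in limma, as 6.03% and 6.96% of all genes were), with a median log2 fold change of -0.02 and values from -0.35 to 0.39. Gpihbp1, which carries lipoprotein lipase to the capillary wall, read 7.58, 7.39 and 7.69 in the controls and 8.02, 7.77 and 8.04 in HKO, without overlap (0.39 ± 0.11, limma adjusted p = 0.188). Klb stood at 0.29 ± 0.12 (0.373), and Fgfr4, the main FGF receptor of hepatocytes, at -0.02. Lpl, the enzyme that Angptl4 inhibits, stood at 0.09 ± 0.20, and the insulin receptor gene Insr at -0.02. Tie1, an endothelial receptor, stood at -0.35 ± 0.08 (0.102), without overlap. Its mean was 3.89 in controls and 3.54 in HKO, the latter below the olfactory receptor 95th percentile of 3.71. Among the activin chains and receptors that follistatin bears on, Inhba, Inhbb, Inhbc, Inhbe, Acvr1b, Acvr2a and Acvr2b lay between -0.16 and 0.05.

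Relatives of the 9 genes did not pass either. Of 21 genes 18 were measured, with 1 higher and 2 lower at an unadjusted p under 0.05 (6.03% and 6.96% of all genes), a median of -0.08 and values from -0.60 to 0.21. The other trefoil genes, Tff1 and Tff2, stood at -0.10 ± 0.07 and 0.21 ± 0.09 (limma adjusted p = 0.624 and 0.371), beside -2.72 for Tff3. Angptl8, an insulin-induced inhibitor of lipoprotein lipase activity, read 7.26, 7.19 and 6.64 in the controls and 6.85, 6.52 and 5.92 in HKO (-0.60 ± 0.24, 0.351). Gdf10 stood at -0.35 ± 0.11 (0.245). Hrg and Kng1, which lie beyond Fetub in the same cluster of cystatin-like plasma proteins, stood at -0.09 and -0.03.

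Of 27 other hepatokines 23 were measured and 1 passed as higher, with a median of -0.00. At an unadjusted p under 0.05 in limma, 1 was higher and 4 were lower (Orm1, Fgl1, Igfbp2 and Angptl8). Igfbp1, which binds insulin-like growth factors and is repressed by insulin, rose from 9.12, 9.37 and 9.50 in the controls to 10.25, 10.25 and 10.61 in HKO (1.04 ± 0.13, limma adjusted p = 0.0123; 0.0535 without control 2). Fgl1, a hepatocyte mitogen also called hepassocin, read 11.61, 11.30 and 11.55 in the controls and 10.62, 11.17 and 10.49 in HKO (-0.72 ± 0.17, 0.132). The acute phase protein gene Orm1 stood at -0.51 ± 0.11 (0.0984). Igf1, Selenop, Rbp4, Gpnmb, Manf and Inhbe lay between -0.02 and 0.05.

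General plasma proteins of hepatocytes were near 0. Of 20 such genes 17 were measured, none passed (1 lower at an unadjusted p under 0.05), and values ran from -0.23 (Itih4) to 0.09 (Apoa2), with a median of -0.05. Alb, the albumin gene, stood at 0.06 ± 0.07, and the fibrinogen chains Fgb and Fgg at -0.20 and -0.15. All 17 together had a log2 mean intensity of 12.60 to 12.65 in controls and 12.60 in each HKO liver.

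**Figure D3:**
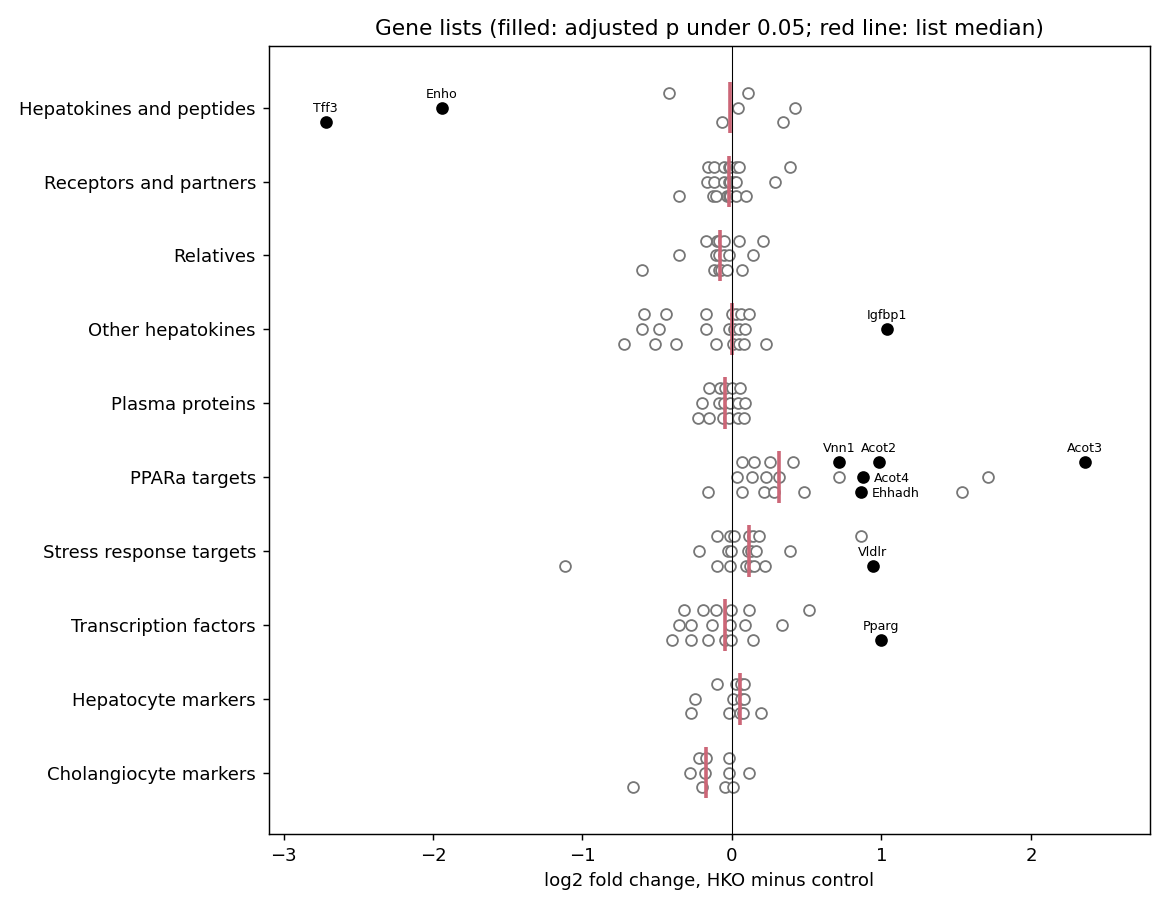
Log2 fold change, HKO minus control (x axis), of each measured gene in 10 lists (y axis). Filled circles passed the test (adjusted p under 0.05) and carry their symbol, open circles did not, and the red line is the list median, with points spread vertically for legibility. Tff3 and Enho are the 2 filled points to the left of 0, and PPARa targets hold 5 of the 8 filled points to the right.

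PPARa, the receptor that raises fatty acid oxidation in fasting, is known to act on Fgf21 and Angptl4 in mouse liver, and its other targets were compared with these genes. Of 24 targets 21 were measured, 5 rose and none fell, with a median of 0.32 beside -0.00 over all genes, and 20 of the 21 were above 0. At an unadjusted p under 0.05 in limma, 14 were higher and 0 lower. Ehhadh, a peroxisomal oxidation enzyme, read 9.77, 9.87 and 9.80 in the controls and 10.69, 10.60 and 10.75 in HKO (0.87 ± 0.08, limma adjusted p = 0.00172). The acyl-CoA thioesterase genes Acot3, Acot4 and Acot2 rose by 2.36, 0.87 and 0.99, and the pantetheinase gene Vnn1 by 0.72. The suffix of the Acot3 probe set also marks probes that can match further transcripts. Without 1 array, Vnn1 passed in 1, Acot2 in 2 and Acot4 in 4 of the 6 fits. Beside them, Fgf21 stood at 0.34 and Angptl4 at -0.42 as given above, neither past the test. Whether either differs from the list was not tested.

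Targets of the integrated stress response, which also governs Fgf21 and Gdf15, were compared in the same way. All 22 were measured and 1 rose, with a median of 0.11 (5 higher and 0 lower at an unadjusted p under 0.05 in limma). Vldlr, a lipoprotein receptor gene, read 4.09, 3.93 and 3.82 in the controls and 4.83, 4.93 and 4.91 in HKO (0.94 ± 0.09, limma adjusted p = 0.00256). The growth inhibitor gene Ddit4 stood at 0.86 ± 0.24 (0.191) and the serine synthesis gene Phgdh at 0.22 (0.297). Atf4 itself stood at 0.11, Trib3 at 0.11 and Ddit3 at -0.01. Asns read 7.04 in control 1 and between 3.85 and 4.74 on the other 5 arrays.

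Among transcription factors known to act on one or more of the 9 genes, 19 of 22 were measured and 1 rose (3 higher and 4 lower at an unadjusted p under 0.05 in limma). Pparg, the adipogenic receptor, read 4.82, 4.69 and 5.02 in the controls and 5.85, 5.56 and 6.12 in HKO (1.00 ± 0.15, limma adjusted p = 0.0246), and passed in 1 of the 6 fits without 1 array. Ppara stood at 0.09 ± 0.09. Mlxipl, the carbohydrate-response factor that binds E-boxes, read 9.03, 8.99 and 8.97 in the controls and 8.68, 8.51 and 8.74 in HKO (-0.35 ± 0.08, 0.118). On the higher side, the xenobiotic receptor gene Nr1i3 stood at 0.52 ± 0.10 (0.0616) and Srebf1 at 0.34 ± 0.11 (0.246), both without overlap. Beside Mlxipl, those lower at an unadjusted p under 0.05 were Rxra (-0.27), Hnf4a (-0.28) and Stat3 (-0.32), none past the test. Rora stood at -0.01, Foxo1 at -0.19 and Stat5b at -0.01.

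Markers of other liver cells were read beside these values. None passed of 15 macrophage, 14 stellate cell and fibroblast, 12 endothelial, 10 lymphocyte and neutrophil, or 9 adipocyte, pancreas and erythrocyte markers, with list medians of 0.04, -0.01, -0.06, -0.06 and -0.04. At an unadjusted p under 0.05 in limma, 2 of the macrophage markers were lower and 0 of the others differed. The log2 mean intensity of the macrophage list lay between 7.96 and 8.53 in controls and between 8.19 and 8.37 in HKO, and that of the stellate list between 7.59 and 7.84 and between 7.58 and 7.96. The lowest p in each list belonged to Cd163 (-0.48 ± 0.09, limma adjusted p = 0.05, just above the threshold), Lum, Oit3, Cd4 and Cela1.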

How the data were processed

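Per the file headers and the labels, the deposited table holds 1 log2 value for each of 38208 Affymetrix probe sets on each of 6 liver arrays. The authors used RMA and limma, per the submitters' processing notes, where their settings and versions do not appear. Before it forms probe set values, RMA gives all arrays 1 distribution of probe intensities, which would hide a change common to all transcripts. Per the labels' protocols, cRNA was made from 400 ng of Trizol-extracted RNA.

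Of the probe sets, 13 controls were left out, 34325 have 1 symbol in the platform annotation, 62 have several and 3808 are unnamed here. The brightest probe set by mean over the 6 arrays stood for each of 18029 genes. The test between genotypes used limma 3.58.1 in R 4.3.3 (lmFit, eBayes, genotype only, two-sided), with Benjamini-Hochberg adjustment across all genes and a threshold of 0.05; single probe sets were fitted over all 38195. An exact permutation test of 3 against 3 cannot give a p below 0.1. The labels call the samples biological, and no 2 arrays were identical. The code was tested on simulated data. The number of arrays limits the precision.

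Members and lists were chosen with earlier results of these data known. For lists with fewer than 3 genes past the threshold, the 3 with the lowest p were the ones to name, with further members named for their role after their values were seen. Promoter windows are from RefSeq; 5 of the 9 genes have one. Same-numbered samples of both genotypes had deviations that correlated at -0.09, 0.07 and 0.11, so the numbers were not taken as pairs. Alternatives covered normalization, a test of only the genes above the median gene, the choice of probe set and the variance model. They also covered array weights, the replicate block, the threshold and leaving out each array.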

Additional observations from a re-analysis of the deposited data

How the results depend on the processing

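Enho and Tff3 were the 2 genes of the 8 that passed as lower, and none passed as higher, under all 11 alternatives and in all 6 fits without 1 array. The log2 fold changes of the 8 genes kept their direction and their side of the threshold in 117 of 120 refits. The other 3 changed sign without passing: Fetub without control 1 (0.0626), and Ahsg (-0.0419) and Lect2 (-0.00563) without control 3. Over the fits without 1 array, Fetub ran from -0.154 to 0.0626, Ahsg from -0.0419 to 0.0918 and Lect2 from -0.00563 to 0.257. Without control 1 or without control 3, 2 genes in place of 1 had groups that did not overlap on the higher side; over the fits without 1 array this count ran from 1 to 2. On the lower side there were 3 in place of 2 under quantile normalization, without control 1 and without HKO 1, and 2 to 3 over the fits without 1 array. The share over all genes is not given for these settings, and a group that lacks 1 array separates more easily. These shifts in overlap are therefore not read as a result about the 8 genes. The replicate block left the 2 calls in place (adjusted p = 0.0107 for Enho and 0.00277 for Tff3), while genes passing as lower dropped from 81 to 53; Tmbim1 no longer passed under it (adjusted p = 0.0828). Of the 9014 genes above the median gene, tested alone, 122 passed as lower. Over all genes, 126 passed as lower with the trend and robust options. At an adjusted p under 0.1 there were 165 higher and 179 lower, and under 0.01 there were 42 and 23. Without 1 array the counts ran from 46 to 94 higher and from 32 to 67 lower. The cause of these shifts in count was not tested, apart from the threshold's own. Signal near the floor limits what can be said of Tff3 in HKO and of the dimmer probe sets of Enho and Angptl4.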
